A study of Mus musculus with 48 samples.

Results

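The 43 cell cycle and DNA replication genes described here were taken by symbol from a fixed list, and all 43 were found among the 27179 genes of the count table. The list was not chosen by a threshold on expression. It covers the 6 subunits of the MCM helicase, other replication and nucleotide synthesis genes, cyclins and Cdk1, mitotic kinases and checkpoint genes, kinetochore, spindle and cytokinesis genes, and 3 transcription factors of the cycle. Bulk mRNA sequencing covered 4 muscles of the mouse hindlimb, at E18.5 (late gestation) and in the adult, with 6 males at each stage and 1 library per muscle and animal. All were of the inbred FVB/NJ strain, with no engineered allele or treatment named in the labels. Stage and muscle are what the labels give to separate the 8 groups, and the tagged dates also differ between the stages. Soleus and vastus intermedius stand for slow-biased muscle and gastrocnemius and vastus lateralis for fast-biased muscle, and in each pair 1 muscle, soleus or gastrocnemius, belongs to the shank and 1, a vastus muscle, to the thigh. The design text gives the adult stage as postnatal day 56, whereas the protocol gives an age of 3 to 4 months for adult mice as obtained, so the stage is called adult throughout. Animals are lettered A to F within a stage, by the date tag in the column names, which the headers do not explain, and a letter does not link the stages.

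In a dividing cell, E2F transcription factors released from the retinoblastoma proteins switch on the genes of DNA synthesis at the entry to S phase. The origin recognition complex, Cdc6 and the MCM helicase license origins, and Cdc45 joins the helicase when an origin fires. A later wave of transcription, driven by the MuvB core with Mybl2 and then with Foxm1, raises the genes of mitosis, many of which carry a CHR element and CCAAT boxes in their promoters. In resting cells the same CHR element is bound by the DREAM complex, which holds these genes down. Muscle fibres are postmitotic, so in growing muscle these transcripts come from myoblasts, satellite cells and the other dividing mononuclear cells. Whole muscle RNA was sequenced, and fewer dividing cells and less of a transcript per cell cannot be told apart in it.

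Promoter sequences are shown for 6 members because the results turn on how far each gene fell from E18.5 to the adult. They belong to the 3 members with the largest fall and the 3 with the smallest fall that had a single promoter window in the RefSeq table and little exon sequence in the 200 bases before the start. Each is written 5′ to 3′ on the strand of the gene, from 200 bases to 1 base before the annotated start, in build GRCm38.p6 as given by RefSeq. Bub1b, a spindle checkpoint kinase, is at chr2:118598011-118598210 (plus strand). Bub1, its checkpoint partner, is at chr2:127831860-127832059 (minus strand). Top2a, the DNA topoisomerase of dividing cells, is at chr11:99024190-99024389 (minus strand). Mcm2 and Mcm3, subunits of the replicative helicase, are at chr6:88898781-88898980 (minus strand) and chr1:20820313-20820512 (minus strand). Rrm1, the large subunit of ribonucleotide reductase, is at chr7:102441495-102441694 (plus strand). Capitals mark matches on either strand to the CHR element (TTTGAA or TTCGAA), the CCAAT box (CCAAT, or ATTGG when read on the other strand) and the E2F site (TTTCCCGC, TTTCGCGC, TTTGCCGC or TTTGGCGC).
Bub1b: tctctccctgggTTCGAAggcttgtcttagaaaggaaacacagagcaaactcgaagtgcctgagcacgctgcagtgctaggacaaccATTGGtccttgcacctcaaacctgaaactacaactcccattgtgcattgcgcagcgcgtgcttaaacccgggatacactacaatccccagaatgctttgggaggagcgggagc
Bub1: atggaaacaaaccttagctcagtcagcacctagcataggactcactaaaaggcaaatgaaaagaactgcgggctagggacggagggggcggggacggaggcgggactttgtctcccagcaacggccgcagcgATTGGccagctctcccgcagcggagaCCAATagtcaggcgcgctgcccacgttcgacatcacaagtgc
Top2a: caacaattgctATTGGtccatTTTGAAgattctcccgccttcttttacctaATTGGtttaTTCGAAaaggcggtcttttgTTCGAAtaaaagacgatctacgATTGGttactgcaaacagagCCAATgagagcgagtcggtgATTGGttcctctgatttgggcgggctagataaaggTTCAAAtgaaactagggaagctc
Mcm2: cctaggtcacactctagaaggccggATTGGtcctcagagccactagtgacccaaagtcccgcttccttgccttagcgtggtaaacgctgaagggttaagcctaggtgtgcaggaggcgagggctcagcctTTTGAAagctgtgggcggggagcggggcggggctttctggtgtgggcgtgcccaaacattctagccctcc
Mcm3: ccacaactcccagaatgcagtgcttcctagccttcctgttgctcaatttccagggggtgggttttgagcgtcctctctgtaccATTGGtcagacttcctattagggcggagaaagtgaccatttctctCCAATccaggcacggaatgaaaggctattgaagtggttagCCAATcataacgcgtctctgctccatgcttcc
Rrm1: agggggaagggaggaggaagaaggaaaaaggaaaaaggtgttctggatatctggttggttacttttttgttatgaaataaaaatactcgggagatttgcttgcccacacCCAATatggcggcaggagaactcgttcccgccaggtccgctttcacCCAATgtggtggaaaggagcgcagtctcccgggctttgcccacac
Top2a held 4 CHR matches and 5 CCAAT matches in its 200 bases, and Rrm1 held 2 CCAAT matches and no CHR match. Over the whole window of 300 bases, from 250 before the start to 50 after it, 36 of the 43 members had a sequence, against 27025 genes in the table. A gene with several windows counted as holding a motif if any of them held it. The number of windows per gene was not matched between the members and all genes. The CHR letters were in 20 of those 36 members (55.6%) and in 21.7% of all windowed genes. CCAAT letters were in 28 members (77.8%) and in 41.1% of all genes, and both elements together were in 19 members (52.8%) and in 9.7% of all genes. The E2F letters were in 6 members (16.7%) and in 2.6% of all genes. In 1 member, matches of different motifs overlapped. A match of these letters is a description of the window and not a bound site.

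Total counts ran from 14935541 to 32383982 per library over the 47 libraries used, with a median of 22899843, and 3 counts corresponded to 0.0926 to 0.201 counts per 1000000 counts (CPM). The library labelled adult vastus intermedius of animal B stood apart. The members summed to 2348 CPM in it, against 149 to 178 CPM in the other 5 adult vastus intermedius libraries, with Mki67 at 306 CPM, Tpx2 at 66.4 CPM and Sgo2a at 19.3 CPM. Its muscle fibre markers summed to 41333 CPM and its satellite cell and myoblast markers to 637 CPM, both within the ranges of the E18.5 libraries. It is left out of every group value and comparison below unless it is named. The scaling factors behind the CPM values were computed with it among the libraries. All 10 muscle fibre markers were detected in each group, and their sum ran from 13329 to 48329 CPM at E18.5 and from 113350 to 283300 CPM in the adult. The date tags hold 4 dates for E18.5 and 5 other dates for the adult, so stage and tagged date cannot be told apart.

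At E18.5 all 43 genes were well expressed in all 4 muscles. Group means ran from 10.4 CPM (Ccne2 in vastus lateralis) to 306 CPM (Mki67 in soleus), and the lowest count of any member in any E18.5 library was 236. Per kilobase of the gene's length in the count table (RPKM, averaged over the E18.5 libraries), the highest member was Pcna, the sliding clamp of DNA polymerase, at 66.5. Ube2c, the ubiquitin-conjugating enzyme of the anaphase-promoting complex, followed at 45.1, Top2a at 43.7, Mcm6 at 34.9, the proliferation marker Mki67 at 28.3 and Rrm1 at 28.2. The lowest per kilobase were Ccne2, a cyclin of the entry to S phase, at 3.56, the licensing factor Cdc6 at 3.64 and Sgo2a, a protector of centromeric cohesion, at 3.68. The members summed to 2418 ± 427 CPM (SD, n = 6) in soleus and 2225 ± 236 (n = 6) in vastus intermedius, and 2382 ± 199 (n = 6) in gastrocnemius and 2263 ± 256 (n = 6) in vastus lateralis. These sums overlapped between all 4 muscles. Scaled CPM here are counts per 1000000 of the library size multiplied by its edgeR TMM factor.

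**Figure D1:**
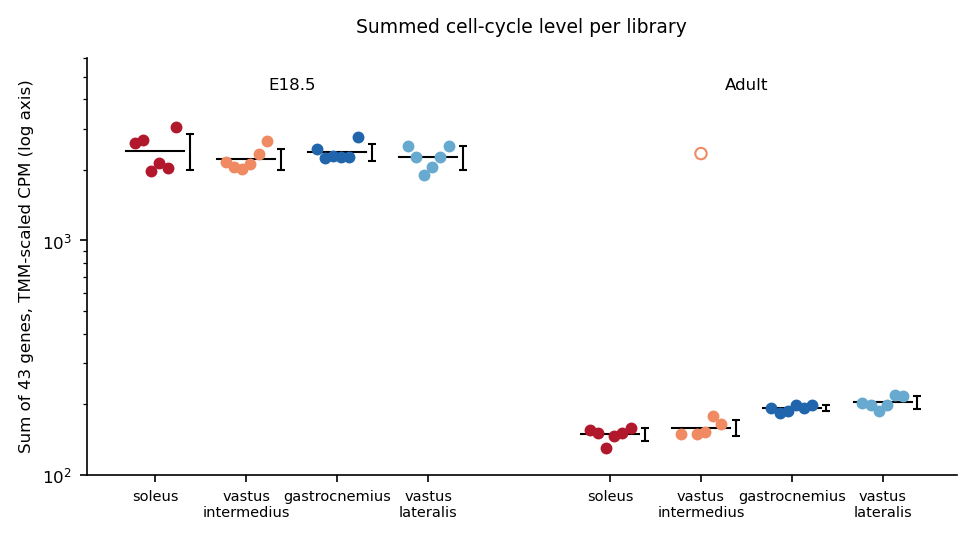
Sum of the 43 genes in TMM-scaled CPM (log axis) in each library by muscle at E18.5 and in the adult, with the mean as a line, the SD as a bar, and the left-out adult vastus intermedius library as an open circle. The E18.5 libraries overlap between muscles, and the open circle at 2348 CPM lies among them.

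No difference between slow-biased and fast-biased muscles was detected in these genes at E18.5. None of the 43 members passed an adjusted p of 0.05 (edgeR quasi-likelihood test with Benjamini-Hochberg adjustment over all genes tested), where 0.368% of all genes tested were called. Their log2 fold changes (slow-biased minus fast-biased) lay between -0.13 (Ccne1) and 0.09 (Cenpf), with standard errors of 0.05 to 0.12 and a median of 0.00. The smallest p-values belonged to E2f1, the transcription factor of S phase entry, at -0.09 ± 0.07 (SE, adjusted p = 0.733), and Aurkb, a kinase of the chromosomal passenger complex, at -0.08 ± 0.07 (adjusted p = 0.782). Ccne1, a cyclin of S phase entry, followed at -0.13 ± 0.11, Cenpa, the centromeric histone, at 0.07 ± 0.08, Rrm2, the small subunit of ribonucleotide reductase, at 0.07 ± 0.09 and Ube2c at -0.06 ± 0.07, with adjusted p between 0.786 and 0.876. These differences went in both directions and were of about the size of their standard errors. Within the shank, soleus against gastrocnemius called 0 members, beside 0.286% of all genes. Its smallest p-values were those of Ccne2 at -0.23 ± 0.16, Ube2c at -0.12 ± 0.10, Cenpf at 0.16 ± 0.18, Tyms at 0.11 ± 0.12, Mki67 at 0.12 ± 0.14 and Ccne1 at -0.12 ± 0.16, none with an adjusted p below 0.789. Within the thigh, vastus intermedius against vastus lateralis called 0 members, beside 0.0317% of all genes. There the smallest p-values belonged to E2f1 at -0.17 ± 0.10, Cdc45 at 0.15 ± 0.12, Aurkb at -0.10 ± 0.10, Cenpa at 0.10 ± 0.12, Prc1 at 0.08 ± 0.09 and Ccne1 at -0.13 ± 0.16, none with an adjusted p below 0.877. In each of these 3 comparisons DESeq2 and limma-voom also called 0 members, and 0 had an unadjusted p under 0.05 by edgeR. None of these fits held a term for the animal, so their standard errors include differences between animals. Fits with the animal as a replicate block are given in the closing section.

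Thigh muscles carried slightly less of 2 of these genes, the helicase subunit Mcm3 and Nusap1, than shank muscles at E18.5. In Mcm3, the lowest, median and highest libraries were at 58.9, 65.8 and 93.2 CPM in soleus, 61.3, 68.1 and 73.9 in gastrocnemius, 48.5, 56.6 and 73.3 in vastus intermedius and 52.7, 60.2 and 74.1 in vastus lateralis. Nusap1, which bundles spindle microtubules, was at 37.3, 40.7 and 47.9 CPM in soleus, 36.4, 41.4 and 44.98 in gastrocnemius, 36.4, 37.6 and 40.9 in vastus intermedius and 33.9, 37.95 and 41.5 in vastus lateralis. The ranges of both genes overlapped between thigh and shank, with the shank medians higher. Of the 43 members, 2 were called lower in the thigh and 0 higher, where 24.8% of all genes were called. Those 2 were Nusap1, with a log2 fold change of -0.13 ± 0.05 (SE, edgeR adjusted p = 0.0463), and Mcm3, with -0.23 ± 0.08 (adjusted p = 0.0495). The next by p-value were Mcm7 at -0.22 ± 0.09 (adjusted p = 0.0675), Mcm4 at -0.19 ± 0.08 (0.108), Ect2, the exchange factor that starts cytokinesis, at -0.19 ± 0.09 (0.11) and Bub1 at -0.18 ± 0.09 (0.14). The fold change was negative in 41 of the 43 members, with a median of -0.12 against -0.03 over all genes tested. With the animal as a replicate block, 8 members were called lower, beside 30.7% of all genes. They were Mcm2, Mcm3, Mcm4, Mcm6 and Mcm7, Nusap1, Bub1 and Tyms, the thymidylate synthase, with log2 fold changes from -0.23 (Mcm3) to -0.13 (Nusap1). The call of Mcm3 was lost without animal A, B, C or D and that of Nusap1 without A, C, D or F, and the count then lay between 0 and 4. With size factors in place of TMM, or with no filter on low counts, 0 members were called, and with total counts as the only scaling 27 were, when the median of all genes itself moved to -0.17 and that of the members to -0.26. The share of all genes called under these settings is not given here.

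Few of the other genes of the cycle were called at E18.5. Between slow-biased and fast-biased muscles, edgeR called 0 genes in each of 7 further lists of the pathway, and 1 gene, in the Rb, E2F and DREAM list, had an unadjusted p under 0.05. Between thigh and shank, where 24.8% of all genes were called, 3 of 9 cyclins and kinases of G1 phase were lower in the thigh, among them Cdk2, the partner of cyclin E, at -0.23 ± 0.05 and Cdk7, the CDK-activating kinase, at -0.20 ± 0.05. Of 24 replicative polymerase and fork genes 3 were lower, with the primase subunit Prim1 at -0.21 ± 0.05 and the polymerase delta subunit Pold3 at -0.17 ± 0.05. Of 19 genes of origin licensing and firing 1 was lower (Cdc7, the kinase that fires origins, at -0.17 ± 0.06), and of 30 kinetochore, condensin and spindle genes 1 was lower (Kif18a, a kinesin that damps chromosome movement, at -0.42 ± 0.13). Of 20 further mitotic kinase and checkpoint genes edgeR called 0, and 5 had an unadjusted p under 0.05. Higher in the thigh were 1 of 5 CDK inhibitors (Cdkn2d, 0.35 ± 0.08) and 1 of 17 genes of the Rb, E2F and DREAM list (E2f6, a repressive E2F, 0.42 ± 0.07). Among the cell type lists, muscle fibre markers were higher in the thigh in 10 of 10 genes, with a median log2 fold change of 0.69. Their sum ran from 27163 to 48329 CPM in the 2 vastus muscles and from 13329 to 34683 CPM in the 2 shank muscles. Satellite cell and myoblast markers were lower in 4 and higher in 1 of 10, with sums of 480 to 775 CPM in the thigh and 600 to 870 CPM in the shank. The part of these markers in the members' lower level was not tested. The edgeR F test of any difference among the 4 muscles called 0 of 43 members (0 at an unadjusted p under 0.05, and 0 by DESeq2 and by limma-voom) and 17.7% of all genes, with Mcm3 (adjusted p = 0.191), Nusap1 (0.222), Mcm7 (0.278), Mcm4 (0.395), Ect2 (0.397) and Bub1 (0.418) leading. With the animal as a replicate block it called 3, Mcm2, Mcm3 and Mcm7, beside 24.7% of all genes.

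More of the spread of these genes at E18.5 lay between animals than between muscles. In a layout of muscle by animal, the median share of a member's sum of squares was 57.9% for the animal, 8.01% for the muscle and 34.9% for the rest, and the animal took more than the muscle in 42 of 43 members. There are more animals than muscles, which by itself raises the animal's share, and the shares over all genes were not computed. The members also moved together across animals, so they do not count as independent. The summed member level, averaged over an animal's 4 muscles, was 2442 CPM in animal A, 2313 in B, 2050 in C, 2151 in D, 2229 in E and 2746 in F. Animals C, D and E, the lowest, share a tagged date, and A, B and F each have a date of their own. Except among C, D and E, animal and tagged date therefore cannot be told apart. Animal F was the highest for 39 members and animal C the lowest for 31. F stood above the mean of the other animals in all 43 members, by a median ratio of 1.23 and a range of 1.07 to 1.40, and C stood below in all 43, by a median ratio of 0.869. F was highest in all 4 muscles for 7 members, in 3 muscles for 18, in 2 muscles for 15 and in 1 muscle for 3. Other lists moved in animal F as well. Its muscle fibre markers averaged 21461 CPM against 26014 to 34961 CPM in the other animals, its erythroid markers 530 CPM against 83.8 to 145 CPM, and its satellite cell and myoblast markers 725 CPM against 637 to 719 CPM. The erythroid mean of F came mostly from its thigh libraries, at 743 CPM in vastus intermedius and 963 in vastus lateralis. No E18.5 library of the shank was above 219 CPM in gastrocnemius or 210 in soleus. The part of these marker lists in the animal's cell cycle level was not tested.

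**Figure D2:**
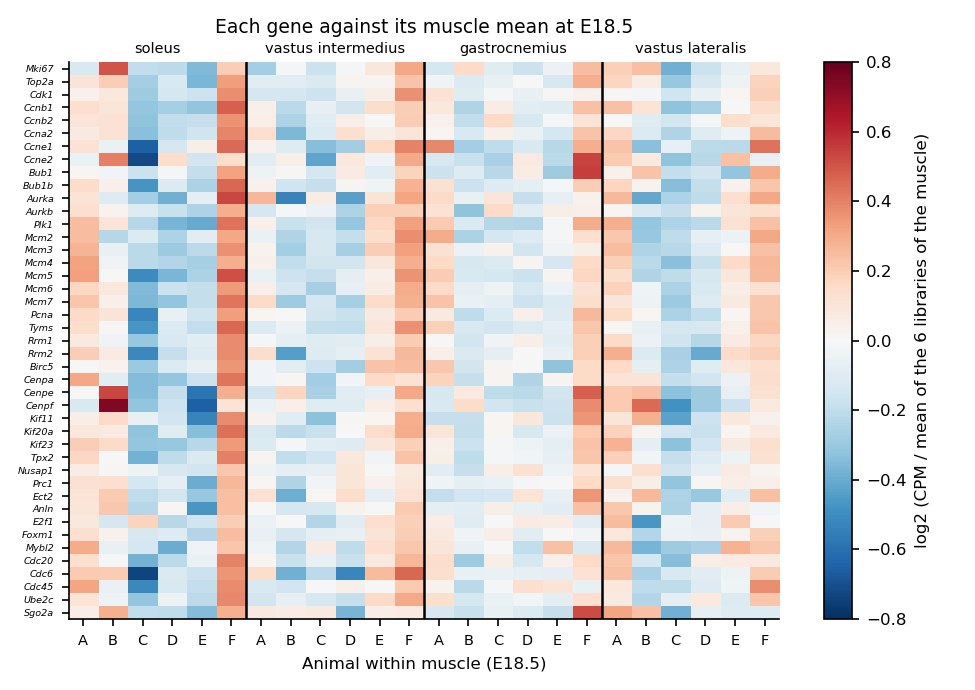
Each row is 1 of the 43 genes and each column 1 E18.5 library, grouped by muscle and ordered by animal A to F, with colour giving the log2 ratio of its CPM to the mean of that muscle's 6 libraries. Columns of animal F are mostly red (above the mean) and those of animal C mostly blue in all 4 muscles.

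From E18.5 to the adult every one of the 43 genes fell in every muscle. The sum fell to 149 ± 10.05 CPM (SD, n = 6) in soleus and 159 ± 12.1 (n = 5) in vastus intermedius, and 193 ± 5.63 (n = 6) in gastrocnemius and 204 ± 12.4 (n = 6) in vastus lateralis, no adult library coming near an E18.5 library. All 43 members were called lower by edgeR in each of the 4 muscles, although 2 calls were not kept without single animals. These were Sgo2a in soleus, whose call was lost without E18.5 A, B or F or adult E or F (adjusted p 0.0503 to 0.0765), and Ccne2 in vastus lateralis, given below. Aurkb, Birc5, Bub1, Bub1b, Ccnb1, Ect2 and Mybl2 had too few adult counts to be tested among adult muscles. They passed the count filter of the stage fits through E18.5, where they were high. The background was large, since 76.0% of all genes were called in soleus and 76.1% in vastus intermedius, and 82.2% in gastrocnemius and 79.0% in vastus lateralis, and 39.7%, 39.2%, 44.0% and 42.6% were called lower. The median log2 fold change of the members was -5.67 in soleus and -5.23 in vastus intermedius, and -5.35 in gastrocnemius and -5.27 in vastus lateralis, against -0.06, -0.04, -0.12 and -0.15 over all genes tested. Every adult library lay below every E18.5 library for 42 members in soleus and 43 in vastus intermedius, and 41 in gastrocnemius and 41 in vastus lateralis, where 29.8%, 31.6%, 35.5% and 33.2% of all genes did so. The exceptions were Sgo2a in soleus and Ccne2 and Aurka in both fast-biased muscles. Scaling to total counts moved the median of all genes to -0.75, -0.80, -1.21 and -1.195 and that of the members to -6.37, -6.00, -6.45 and -6.31.

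**Figure D3:**
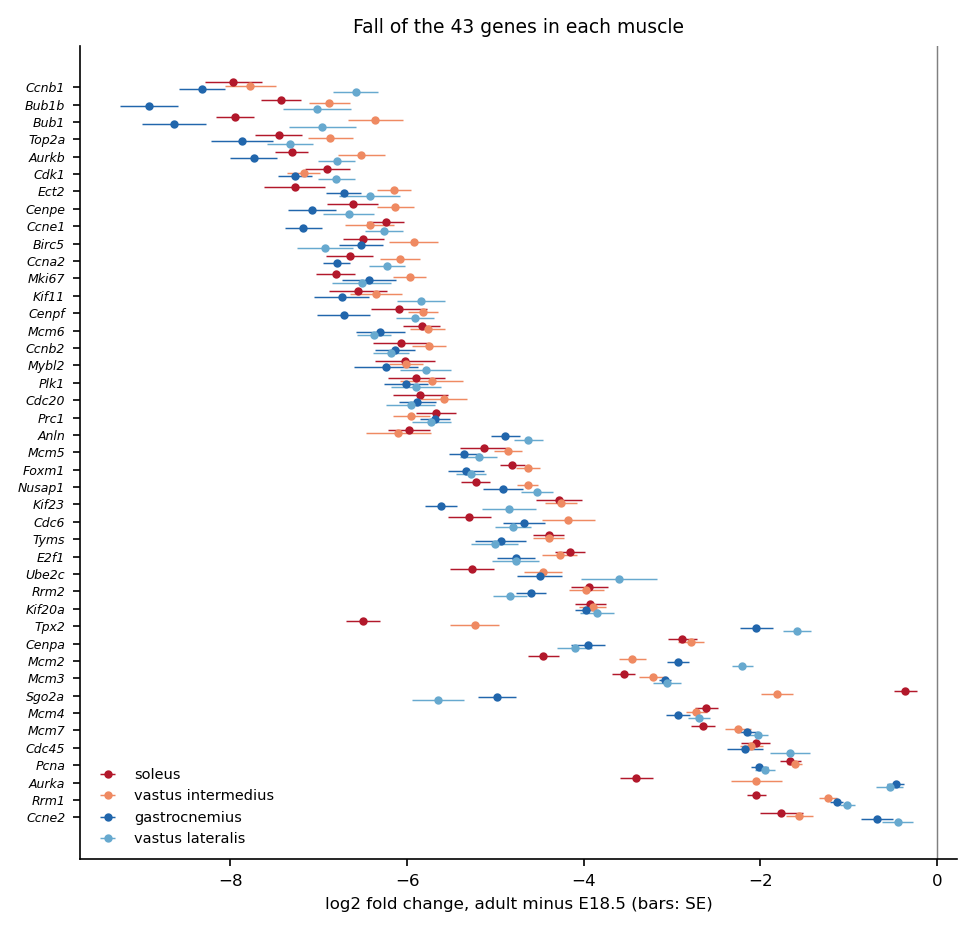
Fitted log2 fold change from E18.5 to the adult for each of the 43 genes (rows, ordered by the mean over muscles) in the 4 muscles (colours), with bars for the SE. All points lie left of 0, from Ccnb1 and Bub1b at the top to Ccne2 at the bottom, and the colours part for Sgo2a, Tpx2, Aurka and Ccne2.

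The general markers of division fell to a few CPM. Mki67, a protein of the surface of mitotic chromosomes, ran at E18.5 from 239 to 433 CPM in soleus and 224 to 334 in vastus intermedius, and 249.6 to 334 in gastrocnemius and 218 to 336 in vastus lateralis. Adult Mki67 levels ran from 2.11 to 4.33 CPM in soleus and 3.33 to 6.23 in vastus intermedius, and 1.435 to 6.52 in gastrocnemius and 0.128 to 5.395 in vastus lateralis. Its log2 fold change was -6.81 ± 0.22 (SE) in soleus and -5.97 ± 0.18 in vastus intermedius, and -6.43 ± 0.31 in gastrocnemius and -6.51 ± 0.34 in vastus lateralis. Top2a ran at E18.5 from 183 to 298 CPM in soleus and 203 to 258 in vastus intermedius, and 216 to 289 in gastrocnemius and 176 to 246 in vastus lateralis. Adult Top2a levels ran from 0.702 to 2.53 CPM in soleus and 0.566 to 2.75 in vastus intermedius, and 0 to 1.998 in gastrocnemius and 0 to 1.93 in vastus lateralis. With -7.45 ± 0.26 (SE) in soleus and -6.87 ± 0.25 in vastus intermedius, and -7.87 ± 0.35 in gastrocnemius and -7.32 ± 0.26 in vastus lateralis, it was among the 5 largest falls.

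Cdk1 and its cyclins were nearly gone, while cyclin E2 was not. Cdk1, the kinase of mitotic entry, ran at E18.5 from 49.9 to 78.5 CPM in soleus and 50.1 to 72.4 in vastus intermedius, and 54.4 to 63.1 in gastrocnemius and 50.5 to 64.3 in vastus lateralis. Adult Cdk1 levels ran from 0.2105 to 1.05 CPM in soleus and 0.252 to 0.555 in vastus intermedius, and 0.0727 to 0.661 in gastrocnemius and 0.257 to 0.893 in vastus lateralis. The highest of the 23 adult libraries was a soleus library, and none came near the E18.5 level. Ccnb1, the cyclin B1 that partners Cdk1, ran at E18.5 from 31.9 to 55.3 CPM in soleus and 32.6 to 43.5 in vastus intermedius, and 33.9 to 46.9 in gastrocnemius and 29.2 to 43.1 in vastus lateralis. Adult Ccnb1 levels ran from 0 to 0.389 CPM in soleus and 0 to 0.375 in vastus intermedius, and 0 to 0.263 in gastrocnemius and 0.0993 to 0.782 in vastus lateralis. This was the largest mean fall of all members, at -7.97 ± 0.33 (SE) in soleus and -7.78 ± 0.29 in vastus intermedius, and -8.32 ± 0.26 in gastrocnemius and -6.58 ± 0.25 in vastus lateralis, and 4 of 23 adult libraries held 0 counts. Ccnb2, the second B-type cyclin, ran at E18.5 from 23.5 to 37.6 CPM in soleus and 24.1 to 32.97 in vastus intermedius, and 25.3 to 32.5 in gastrocnemius and 27.4 to 33.5 in vastus lateralis. Adult Ccnb2 levels ran from 0.106 to 0.862 CPM in soleus and 0.293 to 0.785 in vastus intermedius, and 0.0826 to 0.733 in gastrocnemius and 0.199 to 0.644 in vastus lateralis. Ccna2, the cyclin of S phase and G2, ran at E18.5 from 56.6 to 93.7 CPM in soleus and 51.8 to 73.2 in vastus intermedius, and 65.6 to 84.8 in gastrocnemius and 58.04 to 81.8 in vastus lateralis. Adult Ccna2 levels ran from 0.293 to 1.41 CPM in soleus and 0.439 to 1.74 in vastus intermedius, and 0.358 to 0.998 in gastrocnemius and 0.568 to 1.68 in vastus lateralis. The log2 fold changes were -5.75 (vastus intermedius) to -6.18 (vastus lateralis) for Ccnb2, and -6.08 to -6.80 for Ccna2. Ccne1 ran at E18.5 from 27.3 to 59.1 CPM in soleus and 35.3 to 58.8 in vastus intermedius, and 38.7 to 60.8 in gastrocnemius and 38.9 to 66.6 in vastus lateralis. Adult Ccne1 levels ran from 0.421 to 0.719 CPM in soleus and 0.189 to 1.01 in vastus intermedius, and 0.165 to 0.499 in gastrocnemius and 0.365 to 1.15 in vastus lateralis. Ccne2, its paralog, ran at E18.5 from 6.74 to 14.7 CPM in soleus and 8.47 to 13.98 in vastus intermedius, and 10.8 to 18.8 in gastrocnemius and 8.33 to 12.2 in vastus lateralis. Adult Ccne2 levels ran from 1.31 to 4.48 CPM in soleus and 2.996 to 4.69 in vastus intermedius, and 5.37 to 12.1 in gastrocnemius and 5.05 to 9.93 in vastus lateralis. Both E cyclins act at the same step, yet Ccne1 fell by 6.24 to 7.18 on the log2 scale, and Ccne2 changed by -1.76 ± 0.25 (SE) in soleus and -1.56 ± 0.16 in vastus intermedius, and -0.68 ± 0.18 in gastrocnemius and -0.45 ± 0.18 in vastus lateralis. The smallest of these, in vastus lateralis, had an adjusted p of 0.034, and the call was lost in 5 of the fits that left out 1 animal (without E18.5 A or E, or adult A, D or F, adjusted p 0.0527 to 0.0779).

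Checkpoint and mitotic kinase genes gave some of the deepest and some of the shallowest falls. Bub1b ran at E18.5 from 35.7 to 68.1 CPM in soleus and 41.9 to 57.6 in vastus intermedius, and 44.9 to 57.9 in gastrocnemius and 38.5 to 56.7 in vastus lateralis. Adult Bub1b levels ran from 0.158 to 0.431 CPM in soleus and 0.107 to 0.692 in vastus intermedius, and 0 to 0.496 in gastrocnemius and 0 to 1.19 in vastus lateralis. Bub1 ran at E18.5 from 25.2 to 35.98 CPM in soleus and 23.8 to 29.6 in vastus intermedius, and 23.1 to 41.3 in gastrocnemius and 19.8 to 30.2 in vastus lateralis. Adult Bub1 levels ran from 0.0526 to 0.218 CPM in soleus and 0 to 0.586 in vastus intermedius, and 0 to 0.2104 in gastrocnemius and 0 to 0.541 in vastus lateralis. Of the 23 adult libraries, 5 held 0 counts of Bub1b and 7 held 0 counts of Bub1, in each case 4 of them gastrocnemius, so their fitted changes there (-8.93 ± 0.33 and -8.64 ± 0.36) rest on 9 and 6 counts in all. Aurkb changed by -7.31 ± 0.19 (SE) in soleus and -6.52 ± 0.26 in vastus intermedius, and -7.74 ± 0.27 in gastrocnemius and -6.80 ± 0.21 in vastus lateralis. Plk1, a kinase of spindle assembly and mitotic exit, ran at E18.5 from 22.004 to 39.3 CPM in soleus and 21.7 to 33.6 in vastus intermedius, and 24.99 to 36.2 in gastrocnemius and 21.8 to 33.2 in vastus lateralis. Adult Plk1 levels ran from 0.109 to 1.01 CPM in soleus and 0.107 to 1.29 in vastus intermedius, and 0.143 to 1.03 in gastrocnemius and 0.114 to 0.729 in vastus lateralis. Aurka, the centrosomal kinase, stood apart from these, with -3.40 ± 0.19 (SE) in soleus and -2.05 ± 0.29 in vastus intermedius, and -0.47 ± 0.09 in gastrocnemius and -0.54 ± 0.16 in vastus lateralis, and its levels are given with the adult muscles. Cdc20, which activates the anaphase-promoting complex, ran at E18.5 from 23.7 to 40.5 CPM in soleus and 27.4 to 37.4 in vastus intermedius, and 26.1 to 35.5 in gastrocnemius and 24.8 to 36.5 in vastus lateralis. Adult Cdc20 levels ran from 0.105 to 1.22 CPM in soleus and 0.189 to 1.07 in vastus intermedius, and 0.0727 to 0.716 in gastrocnemius and 0.1804 to 1.31 in vastus lateralis. Birc5, the survivin subunit of the chromosomal passenger complex, ran at E18.5 from 24.9 to 39.01 CPM in soleus and 24.8 to 35.7 in vastus intermedius, and 24.7 to 35.8 in gastrocnemius and 25.1 to 33.3 in vastus lateralis. Adult Birc5 levels ran from 0.105 to 0.601 CPM in soleus and 0.126 to 0.965 in vastus intermedius, and 0.0716 to 0.661 in gastrocnemius and 0 to 0.638 in vastus lateralis. Across Cdc20, Ube2c and Birc5 the log2 fold change ran from -6.93 (Birc5 in vastus lateralis) to -3.60 (Ube2c in vastus lateralis).

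Kinetochore, spindle and cytokinesis genes fell by different amounts, with changes from -6.64 for Ect2 to -3.20 for Sgo2a on the log2 scale as means over the 4 muscles. Among the centromere genes Cenpa, Cenpe (a kinetochore kinesin), Cenpf (an outer kinetochore protein) and Sgo2a, the log2 fold change ran from -7.07 (Cenpe in gastrocnemius) to -0.36 (Sgo2a in soleus). The mitotic kinesins Kif11, Kif20a and Kif23 ran from -6.74 (Kif11 in gastrocnemius) to -3.85 (Kif20a in vastus lateralis). For Tpx2, which activates Aurka on the spindle, Nusap1, Prc1, which cross-links the central spindle, Ect2 and Anln, the scaffold of the contractile ring, the range was -7.27 (Ect2 in soleus) to -1.59 (Tpx2 in vastus lateralis). Sgo2a and Tpx2 gave the values nearest 0 in these sets, in different muscles. Sgo2a changed by -0.36 ± 0.13 (SE) in soleus and -1.81 ± 0.18 in vastus intermedius, and -4.98 ± 0.22 in gastrocnemius and -5.65 ± 0.29 in vastus lateralis, and Tpx2 by -6.50 ± 0.19 (SE) in soleus and -5.23 ± 0.28 in vastus intermedius, and -2.04 ± 0.19 in gastrocnemius and -1.59 ± 0.16 in vastus lateralis. Sgo2a kept more of its level in the slow-biased muscles and Tpx2 in the fast-biased ones.

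Replication and nucleotide synthesis genes fell as well, with changes from -6.07 (Mcm6) to -1.36 (Rrm1) on the log2 scale as means over the 4 muscles, with wide differences between subunits of the same complex. Mcm2 ran at E18.5 from 49.5 to 72.9 CPM in soleus and 43.5 to 66.4 in vastus intermedius, and 48.6 to 71.1 in gastrocnemius and 43.4 to 66.5 in vastus lateralis. Adult Mcm2 levels ran from 1.87 to 3.54 CPM in soleus and 3.61 to 6.23 in vastus intermedius, and 5.99 to 9.41 in gastrocnemius and 10.1 to 14.4 in vastus lateralis. Mcm5 ran at E18.5 from 38.1 to 77.6 CPM in soleus and 45.2 to 65.996 in vastus intermedius, and 49.6 to 64.3 in gastrocnemius and 44.3 to 62.7 in vastus lateralis. Adult Mcm5 levels ran from 0.702 to 2.84 CPM in soleus and 1.32 to 2.27 in vastus intermedius, and 0.624 to 1.998 in gastrocnemius and 0.511 to 1.97 in vastus lateralis. Mcm6 ran at E18.5 from 83.5 to 135 CPM in soleus and 78.9 to 117 in vastus intermedius, and 94.8 to 115 in gastrocnemius and 83.4 to 113 in vastus lateralis. Adult Mcm6 levels ran from 1.11 to 3.12 CPM in soleus and 1.02 to 2.52 in vastus intermedius, and 0.644 to 3.37 in gastrocnemius and 0.638 to 1.89 in vastus lateralis. The 6 subunits form 1 ring in equal numbers, but their falls were not equal. Mcm6 changed by -5.84 ± 0.21 (SE) in soleus and -5.76 ± 0.20 in vastus intermedius, and -6.30 ± 0.28 in gastrocnemius and -6.38 ± 0.19 in vastus lateralis, and Mcm7 by -2.65 ± 0.14 (SE) in soleus and -2.25 ± 0.15 in vastus intermedius, and -2.15 ± 0.11 in gastrocnemius and -2.03 ± 0.12 in vastus lateralis. Mcm5 (-4.86 to -5.35) lay near Mcm6, and Mcm3 (-3.06 to -3.54) and Mcm4 (-2.61 to -2.93) near Mcm7. Mcm7 and Cdc45 share exon bases with genes on the opposite strand, which are given with the neighbouring genes. Cdc45 changed by -2.05 ± 0.16 (SE) in soleus and -2.10 ± 0.13 in vastus intermedius, and -2.17 ± 0.20 in gastrocnemius and -1.67 ± 0.23 in vastus lateralis. Pcna ran at E18.5 from 61.4 to 111 CPM in soleus and 70.5 to 91.6 in vastus intermedius, and 75.1 to 103 in gastrocnemius and 68.1 to 94.2 in vastus lateralis. Adult Pcna levels ran from 25.7 to 31.1 CPM in soleus and 23.8 to 27.7 in vastus intermedius, and 19.1 to 26.7 in gastrocnemius and 17.6 to 27.4 in vastus lateralis. It changed by -1.66 ± 0.12 (SE) in soleus and -1.61 ± 0.08 in vastus intermedius, and -2.01 ± 0.10 in gastrocnemius and -1.95 ± 0.11 in vastus lateralis. Rrm1 changed by -2.04 ± 0.11 (SE) in soleus and -1.24 ± 0.10 in vastus intermedius, and -1.13 ± 0.07 in gastrocnemius and -1.02 ± 0.09 in vastus lateralis, less than Pcna outside soleus and more in soleus. Rrm2 ran at E18.5 from 30.3 to 56.3 CPM in soleus and 28.5 to 46.5 in vastus intermedius, and 37.2 to 46.03 in gastrocnemius and 28.6 to 46.2 in vastus lateralis. Adult Rrm2 levels ran from 1.76 to 4.55 CPM in soleus and 1.66 to 3.44 in vastus intermedius, and 1.29 to 2.93 in gastrocnemius and 0.894 to 1.75 in vastus lateralis. Tyms ran at E18.5 from 23.9 to 45.7 CPM in soleus and 24.8 to 36.6 in vastus intermedius, and 27.6 to 35.8 in gastrocnemius and 27.1 to 34.8 in vastus lateralis. Adult Tyms levels ran from 1.202 to 1.99 CPM in soleus and 0.943 to 1.89 in vastus intermedius, and 0.293 to 2.08 in gastrocnemius and 0 to 1.48 in vastus lateralis. Of the 2 subunits of ribonucleotide reductase, the enzyme that makes deoxynucleotides, Rrm2 fell by 3.94 to 4.83 on the log2 scale and Rrm1 by 1.02 to 2.04.

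The 3 transcription factors also fell. E2f1 ran at E18.5 from 19.9 to 26.6 CPM in soleus and 17.5 to 23.6 in vastus intermedius, and 21.8 to 24.4 in gastrocnemius and 16.8 to 27.8 in vastus lateralis. Adult E2f1 levels ran from 0.9104 to 1.85 CPM in soleus and 0.503 to 1.498 in vastus intermedius, and 0.374 to 1.599 in gastrocnemius and 0.193 to 1.31 in vastus lateralis. Foxm1 ran at E18.5 from 38.3 to 53.2 CPM in soleus and 39.3 to 49.2 in vastus intermedius, and 42.3 to 47.3 in gastrocnemius and 37.3 to 50.1 in vastus lateralis. Adult Foxm1 levels ran from 1.09 to 1.96 CPM in soleus and 1.099 to 1.96 in vastus intermedius, and 0.363 to 1.79 in gastrocnemius and 0.745 to 1.74 in vastus lateralis. Mybl2, the Myb protein of the MuvB complex, ran at E18.5 from 11.6 to 18.7 CPM in soleus and 12.8 to 17.5 in vastus intermedius, and 13.4 to 18.1 in gastrocnemius and 11.003 to 17.3 in vastus lateralis. Adult Mybl2 levels ran from 0 to 0.479 CPM in soleus and 0.161 to 0.337 in vastus intermedius, and 0 to 0.587 in gastrocnemius and 0 to 0.397 in vastus lateralis. Mybl2 fell furthest of these, by 5.79 to 6.24 on the log2 scale, against 4.16 to 4.77 for E2f1 and 4.63 to 5.33 for Foxm1, and 4 adult libraries held 0 counts of it. Averaged over the 4 muscles, the largest falls were those of Ccnb1 (-7.66), Bub1b (-7.56), Bub1 (-7.48), Top2a (-7.38) and Aurkb (-7.09), and the smallest were those of Ccne2 (-1.11), Rrm1 (-1.36), Aurka (-1.61), Pcna (-1.81) and Cdc45 (-1.997). In these 2 sets of 5, the first holds mitotic genes only and the second Aurka beside 4 genes of S phase and its entry. Of the first set, Ccnb1, Bub1b, Bub1 and Aurkb had too few adult counts to be tested among adult muscles.

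The rest of the pathway fell with the members, unevenly by list. All 30 further kinetochore, condensin and spindle genes were called lower in each of the 4 muscles, with medians of -5.89 in soleus and -5.43 in vastus intermedius, and -5.79 in gastrocnemius and -5.62 in vastus lateralis. In this list, Dlgap5, a spindle protein, changed by -7.55 ± 0.24 in soleus, -6.63 ± 0.18 in vastus intermedius and -7.71 ± 0.28 in gastrocnemius. Spc25, of the Ndc80 complex, changed by -6.91 ± 0.22 in soleus, its partner Nuf2 by -6.43 ± 0.17 in vastus intermedius and the condensin subunit Ncaph by -5.07 ± 0.17 in gastrocnemius. In vastus lateralis the leading genes were Racgap1, of the central spindle, at -4.28 ± 0.16 and Hmmr, a spindle protein, at -7.32 ± 0.27. Dlgap5, Spc25, Nuf2 and Hmmr, like others of this list, had too few adult counts to be tested among adult muscles. Such genes passed the count filter of the stage fits through their E18.5 counts. Of 20 mitotic kinase, phosphatase and checkpoint genes, 20 were lower in soleus and 20 in vastus intermedius, and 19 in gastrocnemius and 19 in vastus lateralis. Examples were Incenp, of the passenger complex, at -4.08 ± 0.15 in soleus and -4.26 ± 0.19 in gastrocnemius, the checkpoint gene Mad2l1 at -3.79 ± 0.15 in soleus and -3.67 ± 0.18 in vastus lateralis, and the kinase Melk at -10.18 ± 0.28 in gastrocnemius and -6.61 ± 0.30 in vastus intermedius. Cdca8 changed by -6.08 ± 0.23 in vastus intermedius and Espl1, the separase, by -5.87 ± 0.26 in vastus lateralis. Melk and others of this list also had too few adult counts to be tested among adult muscles.

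Licensing and fork genes fell in most but not all cases. Of 19 licensing and firing genes, 15 were lower and 0 higher in soleus and 14 and 1 in vastus intermedius, and 15 and 2 in gastrocnemius and 14 and 3 in vastus lateralis. Clspn, the fork checkpoint mediator, changed by -6.39 ± 0.23 in soleus and -6.47 ± 0.20 in vastus intermedius, and -7.76 ± 0.25 in gastrocnemius and -8.04 ± 0.41 in vastus lateralis. Cdt1, which loads the helicase, changed by -4.35 ± 0.17 in soleus and -6.01 ± 0.24 in vastus lateralis, Cdc7 by -4.24 ± 0.16 in vastus intermedius and Ticrr, an initiation factor, by -9.61 ± 0.31 in gastrocnemius. Clspn and Ticrr had too few adult counts to be tested among adult muscles and passed the filter of the stage fits through their E18.5 counts. Of 24 polymerase and fork genes, 22 were lower in soleus and 22 in vastus intermedius, and 21 in gastrocnemius and 20 in vastus lateralis. Lig1, the replicative DNA ligase, changed by -3.94 ± 0.15 in soleus and -3.84 ± 0.13 in vastus intermedius, and -4.26 ± 0.10 in gastrocnemius and -4.36 ± 0.13 in vastus lateralis. Prim1 changed by -3.83 ± 0.14 in soleus and -3.72 ± 0.14 in vastus intermedius, the polymerase Pole by -3.81 ± 0.08 in gastrocnemius and Pola1 by -3.85 ± 0.16 in vastus lateralis.

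Regulators upstream also split in direction. Of 9 cyclins and kinases of G1, 8 were lower in each muscle, and the exception called higher was Ccnh, the cyclin of Cdk7, in both fast-biased muscles (0.32 in gastrocnemius and 0.61 in vastus lateralis). Ccnd3, a D-type cyclin, changed by -4.04 ± 0.10 in soleus and -3.72 ± 0.09 in vastus intermedius, and -4.17 ± 0.11 in gastrocnemius and -4.21 ± 0.13 in vastus lateralis. Cdk2 changed by -3.19 ± 0.10, -3.04 ± 0.09, -3.71 ± 0.08 and -3.64 ± 0.18 in the same order. Inhibitors of the cycle fell as well. Cdkn1c, the inhibitor p57, changed by -6.64 ± 0.16, -6.35 ± 0.12, -6.25 ± 0.12 and -5.97 ± 0.17, and Cdkn1a, the inhibitor p21, by -3.56 ± 0.25, -3.18 ± 0.26, -3.81 ± 0.16 and -3.67 ± 0.24. In the CDK inhibitor list 4 of 5 tested were lower in each slow-biased muscle and 3 of 6 in each fast-biased one. Cdkn1b, the inhibitor p27, was higher in all 4 muscles (0.76, 0.57, 0.78 and 0.82). Of 17 Rb, E2F and DREAM genes, 4 were higher and 11 lower in soleus and 5 and 11 in vastus intermedius, and 5 and 10 in gastrocnemius and 6 and 8 in vastus lateralis. E2f6 was higher in soleus (1.60 ± 0.09) and gastrocnemius (2.16 ± 0.09), and Rbl2, the pocket protein p130 of the DREAM complex, was higher in soleus (1.40) and vastus lateralis (2.07 ± 0.10). The activating E2f2 changed by -5.27 ± 0.23 in soleus, -4.65 ± 0.21 in vastus intermedius and -3.55 ± 0.14 in gastrocnemius, Rbl1, the pocket protein p107, by -2.51 ± 0.14 in vastus intermedius and the repressive E2f7 by -5.15 ± 0.17 in vastus lateralis.

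Cell type markers moved between the stages too. Satellite cell and myoblast markers summed to 480 to 870 CPM at E18.5 and 68.4 to 120 CPM in the adult, and 8 to 9 of the 10 were called lower in each muscle, with 2 higher in soleus. Fibroblast and fibro-adipogenic progenitor markers summed to 10719 to 24863 CPM at E18.5 and 1142 to 3546 CPM in the adult. Muscle fibre markers were higher in the adult in 8 to 10 of 10, and lower in 2 of 10 in vastus lateralis. Endothelial markers summed to 476 to 807 CPM at E18.5 and 346 to 1068 CPM in the adult. Their part in the fall of the members was not tested. Beside them, the members' own sum ran from 1895 to 3044 CPM at E18.5 and from 130.3 to 219 CPM in the adult.

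What remained in the adult was carried by a few genes. The median member kept 1.97% of its E18.5 mean in soleus and 2.72% in vastus intermedius, and 2.45% in gastrocnemius and 2.61% in vastus lateralis. Under 5% was left of 29 members in soleus and 27 in vastus intermedius, and 31 in gastrocnemius and 30 in vastus lateralis, 25 of them in all 4 muscles. Over 10% was left of 8, 10, 10 and 10 members, 6 of them in all 4 muscles. Over 25% was left of 3, 4, 5 and 7 members, and 2 of these, Ccne2 and Pcna, were past that level in every muscle. Adult means were under 1 CPM for 19, 18, 20 and 20 members and over 5 CPM for 6, 6, 9 and 9. The 5 highest members made up 64.7% of the adult sum in soleus and 61.6% in vastus intermedius, and 65.4% in gastrocnemius and 63.4% in vastus lateralis. Rrm1 and Pcna alone were 38.2%, 44.3%, 39.98% and 38.3% of the adult sum, against 8.46%, 8.35%, 8.55% and 8.52% of the sum at E18.5. Per kilobase, averaged over the adult libraries, the highest were Pcna at 19.4 RPKM, Rrm1 at 11.6, Mcm7 at 5.57, Aurka at 4.76 and Mcm4 at 2.85, and the lowest was Bub1 at 0.0376. Every adult library held more than 3 counts of 19 members, and 13 members were at 0 in at least 1 adult library. No member was at 0 in a whole group.

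Between slow-biased and fast-biased muscles of the adult, the genes that differed most by p-value were Sgo2a, Tpx2, Aurka and Mcm2. Sgo2a (chromosome 1, 57985340 to 58026277, GRCm38.p6) was high in slow-biased muscle. Its lowest, median and highest adult libraries were at 14.1, 15.9 and 19.9 CPM in soleus, 0.4295, 0.631 and 1.03 in gastrocnemius and 0, 0.349 and 0.583 in vastus lateralis, and the 5 vastus intermedius libraries were at 4.23, 8.16, 4.904, 3.88 and 5.61. All slow-biased libraries lay above all fast-biased ones, and soleus kept 79.5% of its E18.5 mean against 27.99% in vastus intermedius, with 1.86% left in vastus lateralis and 3.21% in gastrocnemius. The log2 fold change (slow-biased minus fast-biased) was 4.23 ± 0.21 (SE, edgeR adjusted p = 9.91e-14). Tpx2 (chromosome 2, 152847964 to 152895321) was the reverse. Its lowest, median and highest libraries were at 0.351, 0.845 and 0.983 CPM in soleus, 11.1, 16.8 and 30.6 in gastrocnemius and 14.3, 21.9 and 33.4 in vastus lateralis, with 1.29, 1.443, 1.19, 4.03 and 1.07 in the 5 vastus intermedius libraries. Again the slow-biased and fast-biased libraries did not overlap, and the log2 fold change was -4.07 ± 0.23 (adjusted p = 5.68e-13). At E18.5 the group means of Tpx2 were 66.4 to 73.3 CPM and those of Sgo2a 18.3 to 21.6 CPM.

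Aurka (chromosome 2, 172356190 to 172370886) was at 1.31, 1.93 and 2.54 CPM (lowest, median, highest) in soleus, 13.6, 14.9 and 18.2 in gastrocnemius and 10.6, 13.7 and 17.8 in vastus lateralis, and at 6.16, 1.498, 4.02, 5.57 and 5.55 in vastus intermedius. The fast-biased libraries were all higher than the slow-biased ones and kept 74.5% (gastrocnemius) and 70.3% (vastus lateralis) of the E18.5 mean, against 9.59% in soleus and 24.02% in vastus intermedius. Its log2 fold change was -2.23 ± 0.16 (edgeR adjusted p = 3.16e-11). Mcm2 (chromosome 6, 88883474 to 88898780) was at 1.87, 2.87 and 3.54 CPM in soleus, 5.99, 7.88 and 9.41 in gastrocnemius and 10.1, 11.7 and 14.4 in vastus lateralis, and at 4.56, 3.61, 4.15, 6.23 and 4.82 in vastus intermedius. Here soleus lay below both fast-biased muscles, and the highest vastus intermedius library reached into the gastrocnemius range. The log2 fold change of Mcm2 was -1.41 ± 0.12 (adjusted p = 5.53e-10). Rrm1 (chromosome 7, 102441695 to 102469771) averaged 28.7 ± 2.76 (SD, n = 6) CPM in soleus and 44.7 ± 7.31 (SD, n = 5) in vastus intermedius, and 54.95 ± 3.42 (SD, n = 6) in gastrocnemius and 56.4 ± 4.61 (SD, n = 6) in vastus lateralis, a log2 fold change of -0.61 ± 0.06 (adjusted p = 8.02e-09). Cenpa averaged 3.56 ± 0.567 (SD, n = 6) CPM in soleus and 3.68 ± 0.757 (SD, n = 5) in vastus intermedius, and 1.69 ± 0.658 (SD, n = 6) in gastrocnemius and 1.405 ± 0.551 (SD, n = 6) in vastus lateralis. It was higher in slow-biased muscle by 1.26 ± 0.18 (adjusted p = 2.25e-06).

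**Figure D4:**
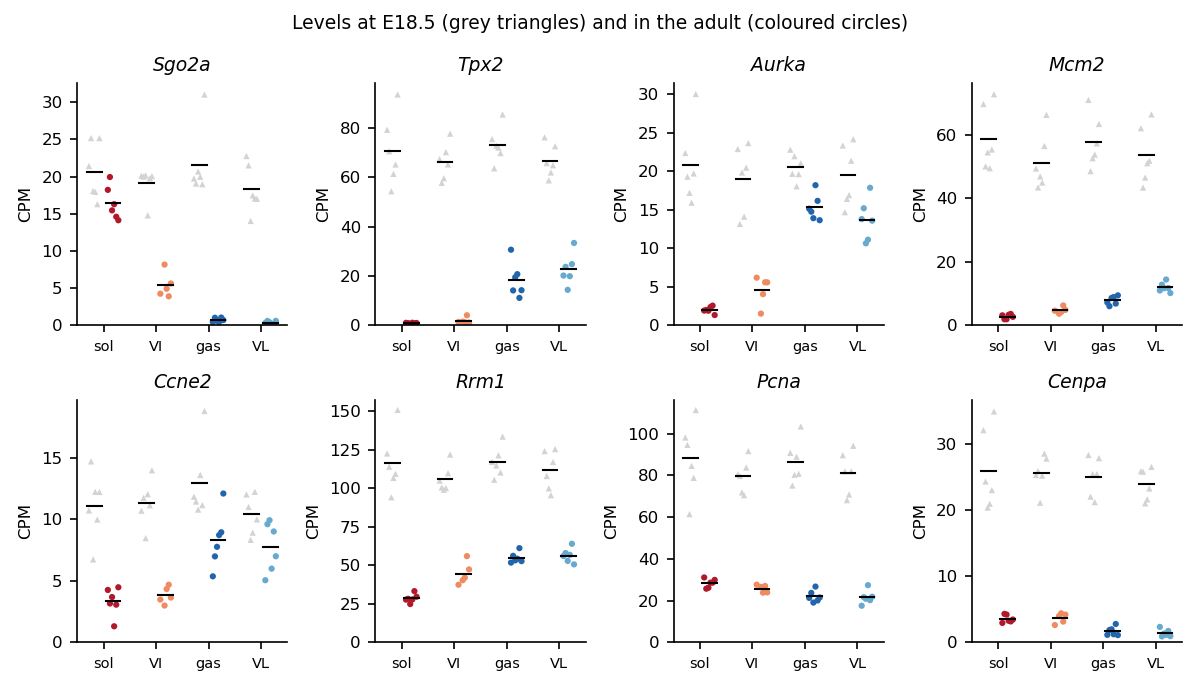
CPM of 8 members in each library of soleus (sol), vastus intermedius (VI), gastrocnemius (gas) and vastus lateralis (VL), with E18.5 as grey triangles, the adult as coloured circles and each group's mean as a line. Adult Sgo2a is high in soleus, Tpx2 and Aurka are high in gas and VL, and at E18.5 the 4 muscles overlap for every gene shown.

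In all, 15 of the 36 members tested in the adult were called between slow-biased and fast-biased muscles, 6 higher and 9 lower in slow-biased muscle. Of all genes tested, 66.0% were called, so the members' share was below the background. The members' median log2 fold change was 0.12, against 0.08 over all genes. The 7 members not tested (Aurkb, Birc5, Bub1, Bub1b, Ccnb1, Ect2 and Mybl2) had too few adult counts. Beyond those above, Ccne2 (-1.14 ± 0.17), Anln (-1.25 ± 0.32), Mcm7 (-0.36 ± 0.10), Mcm3 (-0.32 ± 0.11) and Ube2c (-0.86 ± 0.37) were lower. Kif23 (0.999 ± 0.29), Rrm2 (0.84 ± 0.20), Foxm1 (0.58 ± 0.22) and Pcna (0.34 ± 0.07) were higher. The weakest calls did not survive every omission of an animal. Foxm1 lost its call without animal C or D, Mcm3 without D or F, and Ube2c without A, D, E or F (adjusted p 0.0513 to 0.182). Scaling to total counts alone shifted the median of all genes to 0.41 and that of the members to 0.42, and it called 18 members, 12 higher and 6 lower, 12 of them shared with the 15. The share of all genes called under it is not given here. Under that scaling Mcm3 (0.03), Mcm7 (-0.02) and Ube2c (-0.56) were not called, and Cenpf, E2f1, Mcm4, Mcm5, Mcm6 and Tyms were called higher. Sgo2a, Tpx2, Aurka, Mcm2, Rrm1, Cenpa and Ccne2 kept their call and direction under both.

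**Figure D5:**
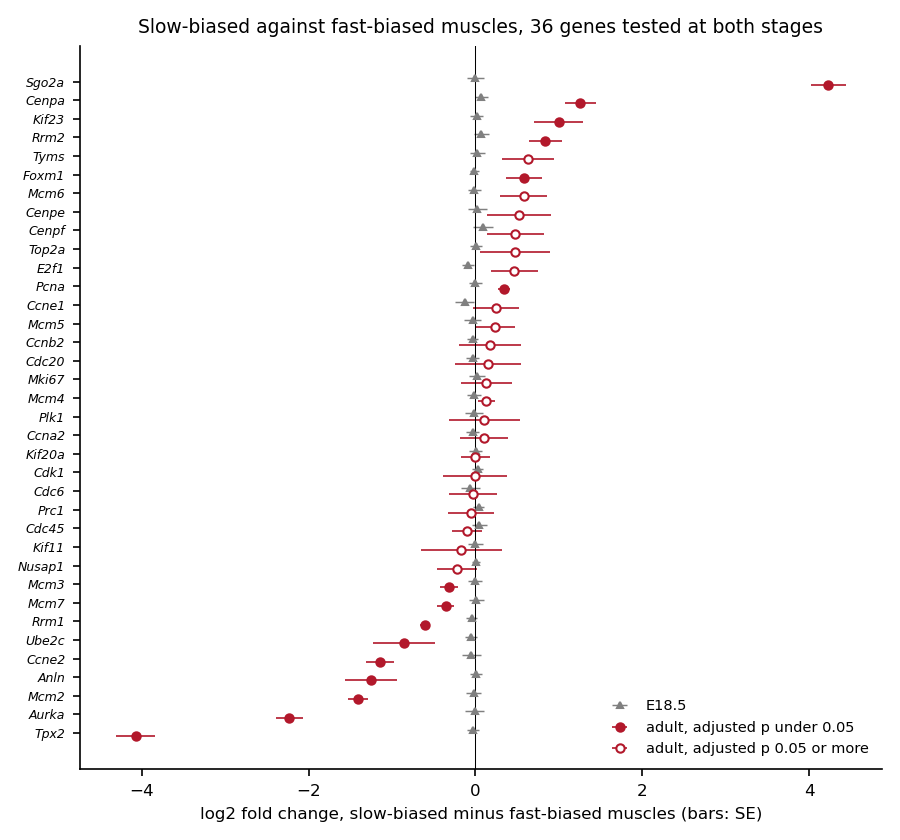
Log2 fold change, slow-biased minus fast-biased, with SE bars, for the 36 genes tested at both stages, with E18.5 as grey triangles and the adult as circles, filled where the edgeR adjusted p was under 0.05. The E18.5 points stay between -0.13 and 0.09, while adult values run from -4.07 (Tpx2) to 4.23 (Sgo2a).

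Sgo2a, Tpx2, Aurka, Mcm2 and Ccne2 were among the 6 members with the smallest p-values both in the shank and in the thigh. Soleus against gastrocnemius called 14 members, 6 higher and 8 lower in soleus, beside 53.5% of all genes. The leading ones were Sgo2a (4.58 ± 0.28), Tpx2 (-4.49 ± 0.33), Aurka (-2.91 ± 0.23), Rrm1 (-0.91 ± 0.09), Mcm2 (-1.49 ± 0.17) and Ccne2 (-1.29 ± 0.23). Vastus intermedius against vastus lateralis called 10 members, 4 higher and 6 lower in vastus intermedius, beside 52.2% of all genes. There the leading ones were Sgo2a (3.89 ± 0.31), Tpx2 (-3.66 ± 0.33), Mcm2 (-1.32 ± 0.18), Aurka (-1.56 ± 0.23), Cenpa (1.40 ± 0.27) and Ccne2 (-0.996 ± 0.25). In soleus against gastrocnemius the calls of Anln, Mcm3, Mcm4, Mcm7 and Rrm2, and in the vastus muscles those of Anln, Pcna and Rrm2, were lost when certain single animals were left out. Thigh against shank in the adult called 5 members, 4 higher and 1 lower in the thigh, beside 19.1% of all genes. Mcm2 (0.70 ± 0.12), Rrm1 (0.35 ± 0.06), Tpx2 (0.74 ± 0.22) and Aurka (0.53 ± 0.16) were higher and Sgo2a (-1.26 ± 0.21) lower, with adjusted p from 0.000204 (Sgo2a) to 0.0224 (Tpx2). Ube2c, at 0.96 ± 0.37, was not called (adjusted p = 0.0707). Aurka lost its call without animal A, B, E or F, and Tpx2 without B, E or F (adjusted p 0.0571 to 0.196), which left 3 to 6 members called. In group means, vastus intermedius lay between soleus and gastrocnemius for Sgo2a, Tpx2, Aurka, Mcm2 and Rrm1. The F test among the 4 adult muscles called 13 members and 65.4% of all genes, with Sgo2a (adjusted p = 2.85e-13), Tpx2 (5.91e-12), Aurka (2.27e-10), Mcm2 (1e-09), Rrm1 (3.45e-09) and Cenpa (2.89e-05) leading.

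The change of the slow-to-fast difference between the stages was tested directly. It was called for 15 of the 43 members, 6 upward and 9 downward, beside 50.8% of all genes. Bub1 and the other members not tested among adult muscles entered this fit through their E18.5 counts. The leading members were Sgo2a (4.20 ± 0.21, edgeR adjusted p = 4.4e-20), Tpx2 (-4.08 ± 0.22, 7.24e-19), Aurka (-2.25 ± 0.20), Mcm2 (-1.42 ± 0.15), Cenpa (1.16 ± 0.18) and Rrm1 (-0.60 ± 0.09). The change of the thigh-to-shank difference was called for 6 members, 5 upward and 1 downward, beside 11.1% of all genes. These were Mcm2 (0.84 ± 0.15), Sgo2a (-1.09 ± 0.22), Rrm1 (0.44 ± 0.09), Tpx2 (0.83 ± 0.23), Bub1 (1.61 ± 0.50) and Aurka (0.62 ± 0.20). The replicate block and limma-voom each called 3 of them. Bub1 rests on very few adult counts, and its call was lost without animal A or E (adjusted p 0.288 and 0.0518), as was that of Aurka without A, B, E or F and that of Tpx2 without E.

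Neighbouring genes are given because no source used here gives the strand setting of the counting, so that reads of overlapping genes on opposite strands could not be told apart. Sgo2a shares 2455 exon bases with Kctd18 on the opposite strand (GENCODE vM21). Kctd18 averaged 6.68 CPM in adult soleus and 6.01 in vastus intermedius, and 7.67 in gastrocnemius and 7.54 in vastus lateralis, and its log2 fold change was -0.23 ± 0.10 (adjusted p = 0.0522). The order of muscles for Kctd18 was not that of Sgo2a. Aox1, an aldehyde oxidase gene that starts 4032 bases downstream of Sgo2a on the same strand, averaged 223 CPM in soleus and 112 in vastus intermedius, and 51.4 in gastrocnemius and 36.7 in vastus lateralis (1.89 ± 0.14), the same order as Sgo2a, and 8.37 to 13.1 CPM at E18.5. Mylk2, the skeletal myosin light chain kinase, lies 16031 bases downstream of Tpx2 on the same strand. It averaged 216 CPM in soleus and 513 in vastus intermedius, and 2222 in gastrocnemius and 2848 in vastus lateralis (-2.89 ± 0.18), the same order as Tpx2, and 60.6 to 127 CPM at E18.5. Ube2c shares 592 exon bases with Tnnc2, the fast troponin C, on the opposite strand, and Tnnc2 averaged 2144, 5542, 11051 and 13305 CPM in the same order of muscles (-1.78 ± 0.11). Cstf1, the nearest neighbour of Aurka, lies 146 bases upstream of it on the opposite strand and differed by -0.16 ± 0.08 (adjusted p = 0.0856). Fam210b, 441 bases downstream of Aurka on the opposite strand, differed by -0.76 ± 0.08, and Podxl2, 8430 bases downstream of Mcm2 on the same strand, by -0.98 ± 0.09. Ccne2 shares 609 exon bases with Ints8 on the opposite strand, which differed by -0.43 ± 0.10. Further members share exon bases with genes on the opposite strand whose levels are not given here. Among them are Kif20a (1271 with Cdc23), Prc1 (911 with Rccd1), Mcm7 (321 with Ap4m1 and 64 with Cops6) and Cdc45 (209 with Ufd1). An order of muscles shared with a neighbour is to be read beside the 66.0% of all genes called between slow-biased and fast-biased adult muscles. Levels of the upstream neighbours of Sgo2a (Spats2l) and Tpx2 (Bcl2l1) are not given here. Whether reads from overlapping or neighbouring genes entered the members' counts was not tested.

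Among the other genes of the pathway, adult muscles differed in both directions. Of 9 cyclins and kinases of G1, 4 were higher and 2 lower in slow-biased muscle, with Cdk7 at -0.60 ± 0.08 and Cdk2 at 0.51 ± 0.12. All 5 CDK inhibitors called, of 6 tested, were lower, led by Cdkn2c, the inhibitor p18, at -1.67 ± 0.21 and Cdkn1c at -0.46 ± 0.10. In the Rb, E2F and DREAM list 3 of 17 were higher and 8 lower, led by Tfdp1, the dimer partner of the E2Fs, at -0.88 ± 0.07 and E2f4, the E2F of the DREAM complex, at -0.65 ± 0.06. Of 15 licensing and firing genes 6 were higher and 4 lower, with the origin subunit Orc3 at -0.65 ± 0.07 and the licensing inhibitor Gmnn at 1.79 ± 0.21. Of 23 polymerase and fork genes 7 were higher and 9 lower, with the clamp loader Rfc1 at -0.31 ± 0.04 and the single-strand binding subunit Rpa2 at -0.68 ± 0.09. Mitotic kinase and checkpoint genes gave 3 higher and 4 lower of 14, with Mastl, the Greatwall kinase, at -1.55 ± 0.25 and the checkpoint gene Bub3 at -0.37 ± 0.06. Kinetochore, condensin and spindle genes gave 3 higher and 2 lower of 14, with Ncapd2, a condensin subunit, at 0.57 ± 0.09 and Cit, the citron kinase of cytokinesis, at 1.24 ± 0.26. These shares, like that of the members, are to be read beside the 66.0% of all genes called.

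Cell type markers also differed between adult muscles. Endothelial markers were higher in slow-biased muscle in 9 of 9 tested, with sums of 722 to 840 CPM in soleus and 797 to 1068 in vastus intermedius, and 464 to 697 in gastrocnemius and 346 to 599.8 in vastus lateralis. Leukocyte and macrophage markers were higher in 9 of 10, fibroblast and fibro-adipogenic progenitor markers in 6 of 10 with 0 lower, and satellite cell and myoblast markers were higher in 6 and lower in 2 of 9. Fibroblast and progenitor sums ran from 2704 to 3546 CPM in soleus and 2119 to 3469 in vastus intermedius, and 1365 to 3132 in gastrocnemius and 1142 to 2892 in vastus lateralis. The summed satellite cell and myoblast level was 75.0 to 112 CPM in soleus and 68.4 to 90.9 in vastus intermedius, and 81.9 to 110 in gastrocnemius and 89.4 to 120 in vastus lateralis, so these sums overlapped between slow-biased and fast-biased muscles. Muscle fibre markers were lower in slow-biased muscle in 8 and higher in 2 of 10. The part of these cell types in the members' differences was not tested. In the authors' deposited table for the adult slow-biased against fast-biased comparison, 16 of the 43 members had an adjusted p under 0.05, 7 of them positive, and the tables that compare stages, in slow-biased and in fast-biased muscles, held all 43. All 43 were positive in both stage tables, opposite in sign to the falls given here. The sign in the authors' tables is therefore not read as a direction here, and whether their fits included the left-out library was not checked. The remaining tables held 0 for slow-biased against fast-biased at E18.5, 2 for thigh against shank at E18.5 (Mcm3 and Nusap1) and 0 for thigh against shank in the adult. The share of all genes called in the authors' tables was not computed, so these counts are not read as a result about the members.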

How the data were processed

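Per the labels' protocols, RNA of integrity number above 7 was made into random-primed mRNA libraries. Per the submitters' processing notes, the authors used the genome mm10, STAR 2.7.11 and featureCounts (Subread 2.0.6), and these notes also name Trimmomatic 0.39.0, FastQC 0.11.5 and DESeq2 1.44.0. The annotation used for counting, and its strand setting, were not given in the sources used here. The deposited values are raw counts per gene with each gene's length, and the authors' deposited tables give DESeq2 results as log2 fold changes with p-values, used only where named. Gene symbols came from those tables (18705) or RefSeq (6576), and 1898 of 27179 genes had none.

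Counts were tested with edgeR 4.0.16 in R 4.3.3 (TMM scaling, filterByExpr, quasi-likelihood F tests, Benjamini-Hochberg adjustment over all genes tested, threshold 0.05). Each stage was fitted over its 4 muscles, the stages were compared within each muscle, and 1 fit of 8 groups tested changes between stages. CPM used TMM-scaled library sizes, with factors computed over all 48 libraries. Depth was 14935541 to 32383982 counts per library, which sets the floor of 3 counts at 0.0926 to 0.201 CPM. Alternatives were size factors, upper-quartile or total-count scaling, no filter, DESeq2 1.42.0, limma 3.58.1 (voom), the animal as a replicate block, each animal left out, and the left-out library included. Scripts were tested on simulated counts. No pair of libraries in a group looked like a duplicate, the chi-square between their counts being at least 10.2 per degree of freedom.

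Column names carry a date tag, with 1 library of each muscle per tag and 6 tags per stage, and the labels' protocols give 6 mice per stage. Libraries that share a tag deviated together from their group means, with a mean correlation of 0.215 at E18.5 and 0.128 in the adult, against -0.0424 and -0.026 for different tags, so a tag was taken as 1 animal that pairs the muscles of a stage.

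The members, the 7 pathway lists and the cell type marker lists were chosen with earlier results of these data known. Of 275 list entries 273 were found. Named with values are a panel of members by role, the 6 members with the smallest p-values in each comparison of muscles, the 5 largest and 5 smallest falls, any member at 0 in a whole group, and, in the list comparisons described, the 2 genes called with the smallest p-values. Marker lists for erythroid, Schwann, pericyte, tendon, cartilage and adipocyte genes were counted too. In the adult slow-biased against fast-biased comparison they gave 4, 7, 8, 4, 3 and 2 genes higher and 0, 1, 1, 0, 0 and 0 lower.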

Additional observations from a re-analysis of the deposited data

Results flagged for a closer look

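Of 344 checks of a member within a group, 27 (7.85%) had a library whose gap to the next was beyond Dixon's 95% critical value, where chance gives about 1 in 20. At E18.5, 10 of them were the library of animal F standing highest. Top2a was at 289 CPM in gastrocnemius and 258 in vastus intermedius, Cdk1 at 72.4 in vastus intermedius, Ccne2 at 18.8 in gastrocnemius, Bub1 at 41.3 in gastrocnemius and 35.98 in soleus, and Mcm5 at 66.0 in vastus intermedius. Cenpe (66.7), Prc1 (73.0) and Sgo2a (31.03) stood out in gastrocnemius. Low libraries at E18.5 were Prc1 of animal C in vastus lateralis (49.5) and Sgo2a of animal D in vastus intermedius (14.8).

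In the adult the high libraries were Mki67 in soleus of F (4.33), Bub1b in gastrocnemius of C (0.496) and vastus lateralis of B (1.19), Plk1 (1.29, F), Mcm4 (11.5, D), Tpx2 (4.03, E) and Cdc6 (1.76, E) in vastus intermedius, Mcm6 (3.37, F) and Rrm2 (2.93, B) in gastrocnemius, and Cdc20 (1.31, F) and Cdc6 (1.03, E) in vastus lateralis. The low ones were Mcm5 in vastus lateralis of B (0.511), and Mcm7 (10.5, D), Ect2 (0.0716, A) and Cdc20 (0.0727, D) in gastrocnemius. Tpx2 in vastus intermedius of E was still below every fast-biased library.

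The slow-to-fast difference changed between the stages, by the edgeR test of that change, for 15 members. On the log2 scale the changes were 4.20 for Sgo2a, 1.16 for Cenpa, 0.93 for Kif23, 0.73 for Rrm2, 0.56 for Foxm1 and 0.31 for Pcna, and -4.08 for Tpx2, -2.25 for Aurka, -1.42 for Mcm2, -1.31 for Anln, -1.13 for Ccne2, -0.84 for Ube2c, -0.60 for Rrm1, -0.40 for Mcm7 and -0.34 for Mcm3. The calls of Mcm3 (without animal B, D, E or F), Mcm7 (without C) and Ube2c (without D, E or F) did not survive these omissions (adjusted p 0.0509 to 0.156). The thigh-to-shank difference changed by 1.61 for Bub1, 0.84 for Mcm2, 0.83 for Tpx2, 0.62 for Aurka, 0.44 for Rrm1 and -1.09 for Sgo2a.

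The library labelled adult vastus intermedius of animal B, which enters no comparison, held a summed member level of 2348 CPM, within the E18.5 range.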

How the results depend on the processing

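All 43 falls from E18.5 to the adult were called under every scaling, filter and tool tried, and 42 to 43 in soleus and vastus lateralis and 43 in the other muscles when single animals were left out. The exception came with the embryonic-like library included, when 20 were called in vastus intermedius. The log2 ratio of the summed level was -4.02 in soleus, -3.63 in gastrocnemius, -3.81 in vastus intermedius and -3.47 in vastus lateralis. On total counts it was -4.74, -4.77, -4.56 and -4.56, and as a mean of log2(CPM + 1) it was -3.99 in gastrocnemius and -3.82 in vastus lateralis. The slow-biased to fast-biased log2 ratio of the adult sum, -0.37, was 0.0045 on total counts and -0.054 as a mean of log2 values, so no direction is given for it.

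Thigh against shank at E18.5 called 2 members, 0 with size factors, 0 with no filter, 27 with total counts, 8 with the replicate block and 0 to 4 without single animals. Any muscle at E18.5 called 0, 2 with total counts and 3 with the replicate block. Adult thigh against shank called 5, 3 with total counts, 3 with limma-voom and 3 to 6 without single animals. The stage difference of thigh minus shank called 6, 3 with limma-voom, 3 with the replicate block and 3 to 8 without single animals. Elsewhere the replicate block changed no count by over 1.5 times (adult slow-biased against fast-biased 16 and soleus against gastrocnemius 12). Other ranges without single animals were 12 to 15 for adult slow-biased against fast-biased, 10 to 14 for soleus against gastrocnemius, 8 to 10 for the vastus muscles, 10 to 13 for any adult muscle and 13 to 17 for the stage difference of slow minus fast.

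With the left-out library included, adult slow-biased against fast-biased called 25 (21 higher, 4 lower), thigh against shank 9, soleus against gastrocnemius 6, vastus intermedius against vastus lateralis 26, any muscle 33, and the stage differences 28 (slow minus fast) and 16 (thigh minus shank). It also turned the sign of Mcm2 between the vastus muscles (-1.32 to 0.22), of Anln there (-1.42 to 2.29), of Anln, Mcm3, Mcm7 and Ube2c between slow-biased and fast-biased muscles (to 0.59, 0.37, 0.0197 and 0.31) and of Anln, Mcm3 and Ube2c in the stage difference (to 0.57, 0.35 and 0.33). With total counts Mcm3 turned to 0.026 between slow-biased and fast-biased muscles, 0.0164 between soleus and gastrocnemius and 0.035 in the stage difference. Over the 239 calls of single members, 3992 of 4158 alternative fits kept direction and call, 154 lost the call and these 12 turned. Most of the 239 calls are falls from E18.5 to the adult, so the tally does not describe the calls between muscles alone. All 12 turns were in comparisons of muscles or in the stage difference. Members called only under an alternative are not in that tally. Apart from the omitted animals and library, the cause of these changes was not tested. Counts in this section are given without the shares of all genes called under the same settings, so they describe only the members' calls. Depth limits members near the floor, since 24 of 43 had an adult library at 3 counts or fewer.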
